A study of Canis lupus familiaris with 2 samples.

Results

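The miR-30 family comprises the mature miRNAs miR-30a, miR-30b, miR-30c, miR-30d and miR-30e, with the dog prefix cfa- in the files. Its members were chosen by name, with any arm suffix allowed, and all 5 were found among the 291 dog miRNA probes of each array. Their identifiers were MIMAT0006604 for miR-30a, MIMAT0006617 for miR-30b, MIMAT0006605 for miR-30c, MIMAT0006616 for miR-30d and MIMAT0006627 for miR-30e, and none of the probe names carried an arm suffix. The arrays held RNA of SNP cells, a canine mammary gland tumour culture. The monolayer group was 1 sample of adherent cells kept in serum-supplemented medium, and the spheroid group was 1 sample grown from non-adherent cells picked out of that medium, with no matrix material added. Selection of the non-adherent cells and the spheroid form of culture therefore cannot be told apart. With 1 sample per group, every difference below is described by its size, without a replicate check and without a p-value, and the number of arrays limits its precision.

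miRNAs are short RNAs that guide repressor complexes to mRNAs, and the seed at their 5′ end does most of the pairing. The miR-30 members share 1 seed and so can act on overlapping sets of mRNAs. In human cells the family is known for repressing SNAI1, a transcription factor that drives epithelial cells towards a mesenchymal state, and the autophagy factor BECN1. In human breast tumour-initiating cells, which are enriched in non-adherent sphere cultures, miR-30 was described as low and as a repressor of the integrin gene ITGB3. The members derive from neighbouring gene pairs, and miR-30c is made from a gene in each of 2 pairs.

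RNA integrity numbers were 9.8 for the monolayer and 9.7 for the spheroids. A miRNA was called detected when its spot was brighter than the blank spots' mean plus 2 SD, a limit of 89.8 intensity units for the monolayer and 79.8 for the spheroids. This held for 180 (61.9%) and 201 (69.1%) of the 291 miRNAs, and 178 were detected on both arrays. Epithelial identity was checked with 7 marker miRNAs (the miR-200 family, miR-203 and miR-205), all of which were detected on both arrays. Of these, miR-200a and miR-200b were dim in the monolayer, only 3.16 and 3.25 blank SDs above the blank mean. At 4.57 and 4.70 deposited units there, they add little to the sums below. Their summed level in the authors' deposited units came to 1247 for the adherent cells and 1864 for the spheroids, although miR-205 was lower in the spheroids (170.0 and 27.6). The fibroblast and smooth muscle markers summed to 73.8 and 51.2 over 4 probes, with miR-143 and miR-145 undetected on both arrays. The sums were 35.1 and 22.0 for 8 striated muscle markers, 10.3 and 8.02 for 5 blood and immune markers and 6.65 and 6.68 for 4 neuronal markers. These marker sums also count undetected probes, which have no deposited value, by their intensity above the blank mean. The only neuronal marker detected, miR-129, was at 6.65 and 5.59. Of the 8 striated muscle markers, 5 were detected on both arrays. The endothelial miR-126 was undetected on both arrays, and the liver marker miR-122 lay just above the limit on the spheroid array only. The part of these cell types in the miR-30 differences was not tested.

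All 5 miR-30 members were detected on both arrays, and each was brighter on the spheroid array before any scaling. The scanner intensity of cfa-miR-30a, in arbitrary units, was 269.8 for the adherent cells and 496 for the spheroids. cfa-miR-30c, which in human breast cancer cells represses the cytoskeletal genes TWF1 and VIM, read 317 and 607. These were the pair with the larger raw ratios, 1.84 and 1.92.

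cfa-miR-30b, which in human endothelial cells represses the Notch ligand DLL4, read 442.8 for the adherent cells and 729.5 for the spheroids. cfa-miR-30d, a repressor of GALNT7 in human melanoma, read 450.2 and 676. Their raw ratios of 1.65 and 1.50 were smaller than those of miR-30a and miR-30c. cfa-miR-30e was the dim member and read 93.7 and 107. On the monolayer array it stood only 3.63 blank SDs above the blank mean, whereas the other members stood 78.0 to 154 blank SDs above it. On the spheroid array it stood 19.4 blank SDs above the mean, against 271 to 421 for the others. With the limit raised to the mean plus 5 SD, all but miR-30e still counted as detected in the monolayer, and all 5 did in the spheroids.

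**Figure D1:**
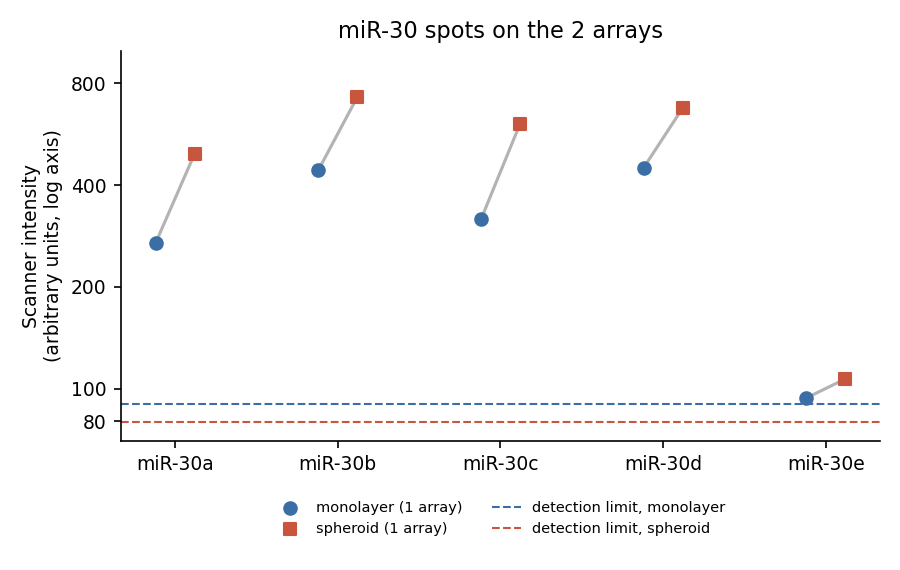
Scanner intensity (arbitrary units, log axis) of the 5 miR-30 spots on the monolayer array (circles) and the spheroid array (squares), with grey lines joining the values of a miRNA and dashed lines at each array's detection limit. Every spheroid spot lies above its monolayer spot, and miR-30e lies close to the limit, at 93.7 in the monolayer.

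Many other miRNAs of like brightness were also brighter on the spheroid array. Of the 38 other miRNAs at least as bright as miR-30a in the monolayer, 28 were brighter in the spheroids, with a median raw ratio of 1.23. Of the 135 dimmer ones 56 were brighter there, with a median ratio of 0.947, on an array whose blank mean was itself lower (76.7 against 85.1). The spike controls, which are probes of 8 spots each, were dimmer there, with spheroid to monolayer ratios of 0.826 and 0.786. When the added RNA for these controls entered the samples is not given in the sources used here.

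After background correction and quantile normalization, which gives both arrays 1 distribution of values, all 5 members were higher in the spheroids, although 75th percentile scaling put miR-30e at -0.014. The share of all 178 miRNAs above 0 was 44.9%. On this log2 scale miR-30c went from 8.40 to 8.95, a difference of 0.55, and miR-30a from 8.18 to 8.64, a difference of 0.46. miR-30e differed by 0.28 (6.07 to 6.35), miR-30b by 0.21 (8.95 to 9.16) and miR-30d by 0.07 (9.01 to 9.07). The family median was 0.28, beside -0.05 over all 178 miRNAs.

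None of the 5 was 2-fold or more apart, against 5.06% of all miRNAs, or 2.25% when only higher levels in the spheroids are counted. The error that could be measured was that between repeated control spots, whose SD for a log2 difference was 0.07 (6 controls, 8 spots each, 42 degrees of freedom). It covers none of the variation from culture, extraction or array. By more than 2 of these SDs, 4 members were higher and 0 lower, beside 32.6% of all miRNAs higher and 36.0% lower. The exception was miR-30d, whose difference was 1.06 spot SDs. In the order of differences from the most positive down, miR-30c ranked 18, miR-30a 23, miR-30e 41, miR-30b 46 and miR-30d 73 of 178.

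The rank of a spot's raw intensity within its array depends on no scaling. Among the 178, miR-30a moved from rank 42 in the monolayer to 35 in the spheroids and miR-30c from 37 to 29. miR-30b moved from 29 to 26 and miR-30d from 28 to 27, so these 2 kept nearly the same place. miR-30e moved from 151 to 105, in a range where many dim spots lie close together. Together the 5 probes made up 2.65% of the blank-subtracted signal of all detected miRNAs for the adherent cells and 3.83% for the spheroids.

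**Figure D2:**
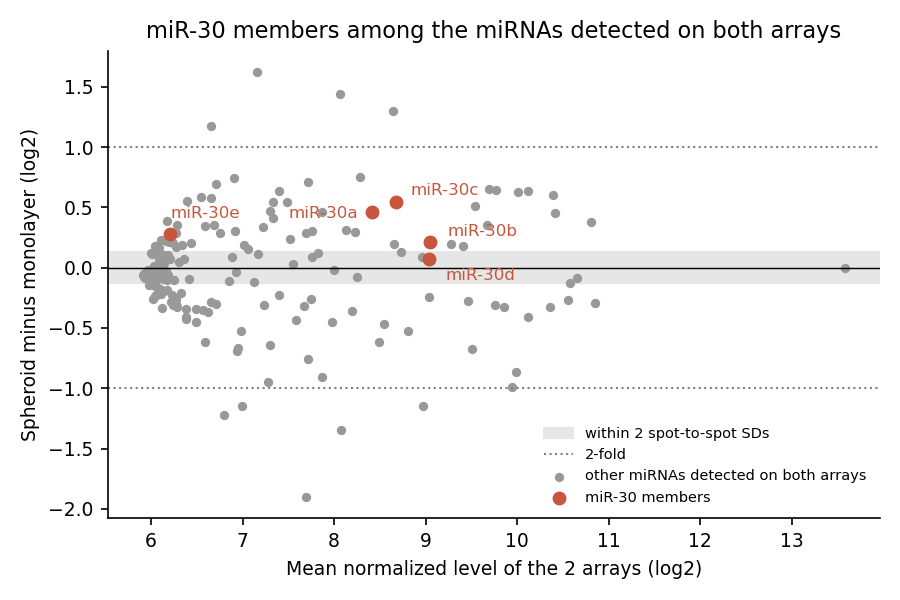
Log2 difference (spheroid minus monolayer) against the mean normalized log2 level of both arrays for the 178 miRNAs detected on both, with miR-30 members in red, a grey band of 2 spot-to-spot SDs and dotted lines at 2-fold. The members lie between 0.07 and 0.55, all inside the 2-fold lines and, except miR-30d, above the band.

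In the authors' deposited values, which subtract the mean blank intensity and apply 1 factor per array, the members were further apart. All 5 were higher in the spheroids, where 50.6% of all miRNAs were. The deposited median of the 178 miRNAs detected on both arrays was 25 on each. The factors thus act like a scaling to the median, which bears on that share. miR-30a was at 113 deposited units for the adherent cells and 209 for the spheroids (1.85-fold), and miR-30c at 141 and 264 (1.87-fold). miR-30b was at 218 and 325 (1.49-fold) and miR-30d at 223 and 298 (1.34-fold). These ratios did not reach 2-fold. A shift of 2 blank SDs in opposite directions in the 2 spots moved the ratios little. The range was 1.79 to 1.91 for miR-30a and 1.31 to 1.36 for miR-30d.

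miR-30e had deposited values of 5.25 for the adherent cells and 14.9 for the spheroids, a ratio of 2.85 and the only one of the 5 past 2-fold. The share of all miRNAs 2-fold or more higher in these values was 12.9%. A shift of 2 blank SDs in opposite directions in the 2 spots moved the ratio of miR-30e across a range of 1.65 to 7.002. Its size therefore rested on a monolayer spot close to the blank level, and in the normalized values, where an offset pulls dim spots together, it was 1.21-fold.

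The genes fall into 3 neighbouring pairs in the RefSeq gene table of assembly UU_Cfam_GSD_1.0, which names 6 miR-30 genes. MIR30A and MIR30C-2 are adjacent miRNA genes within the span of the long non-coding RNA LOC119874195. MIR30B and MIR30D lie within that of LOC119864727, and MIR30C-1 and MIR30E within the span of NFYC, which encodes a subunit of the transcription factor NF-Y. The build behind the array design is not given in the sources used here, so positions are not printed. The probe of miR-30c reads 1 mature miRNA and cannot be assigned to MIR30C-1 or MIR30C-2.

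Seen by gene pair, the difference was larger for miR-30a and miR-30c than for miR-30b and miR-30d. The mean log2 difference of the first pair was 0.50 and that of the second 0.14 in the normalized values, a gap of 0.36. In the deposited values the means were 0.89 and 0.50, with a gap of 0.40. The third pair, miR-30c and miR-30e, had means of 0.41 in the normalized and 1.21 in the deposited values. It shares the miR-30c probe with the first pair and includes the dim miR-30e. Both miR-30a and miR-30c exceeded both miR-30b and miR-30d under all 13 ways of processing the arrays that were tried. The gaps between the means of the first and second pairs were 0.29 to 0.73. The 13 ways all draw on the same 2 arrays and are no replicates of each other. Several of them move all values of an array alike, which cannot change a gap between members. The gap was thus the same with median scaling, both 75th percentile scalings and no scaling. Spike control scaling and the deposited values likewise shared a gap. Quantile normalization over the detected miRNAs alone repeated the main values for these members.

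Within the first and second pairs the members lay closer together in the normalized values. miR-30a and miR-30c differed from each other by -0.08 on the log2 scale and miR-30b and miR-30d by 0.14, both under the 0.18 that corresponds to 2 spot SDs of such a gap, but by -0.57 and -0.72 in a second intensity column of the scanner files, headed as background. Of the 10 possible pairs of members, 7 exceeded that limit, among them all 4 that set miR-30a or miR-30c against miR-30b or miR-30d. How often pairs of other miRNAs exceed it was not tested, so the 7 of 10 cannot be read as particular to miR-30. Single differences past 2 spot SDs were common among the 178, with 32.6% favouring the spheroids and 36.0% the monolayer. The NFYC pair, miR-30c and miR-30e, was among the 7, and its order depended on the background treatment, with miR-30c ahead by 0.27 in the normalized values and behind by a log2 difference of -0.61 in the deposited ones. Mature miR-30 members are close in sequence, and whether 1 probe read the RNA of another member was not tested.

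The size of all differences depended on the scaling. With the arrays scaled to their median the family median was 0.68. On that scale miR-30c was at 0.92 and miR-30a at 0.87, with miR-30b at 0.68, miR-30d at 0.54 and miR-30e at 0.27. With the spike controls as reference all 5 members were 2-fold or more higher, from 1.03 for miR-30d to 2.12 for miR-30e, and 38.8% of all miRNAs were too. That scaling also moved the median of all 178 miRNAs to 0.61, so the family median of 1.50 lay 0.88 above it. Relative to the median of all miRNAs, the family median lay between 0.24 and 0.88 higher over the 13 settings.

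The direction was not the same in every setting for 2 members. miR-30e was at -0.014 with scaling to the 75th percentile of the detected miRNAs, where the median of all miRNAs was -0.28. miR-30b was at -0.11 when that second scanner column was used in place of the spot intensity. In that column miR-30c differed by 1.26, more than in the spot intensity, and miR-30d by 0.61. miR-30a, miR-30c and miR-30d were above 0 in all 13 settings.

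**Figure D3:**
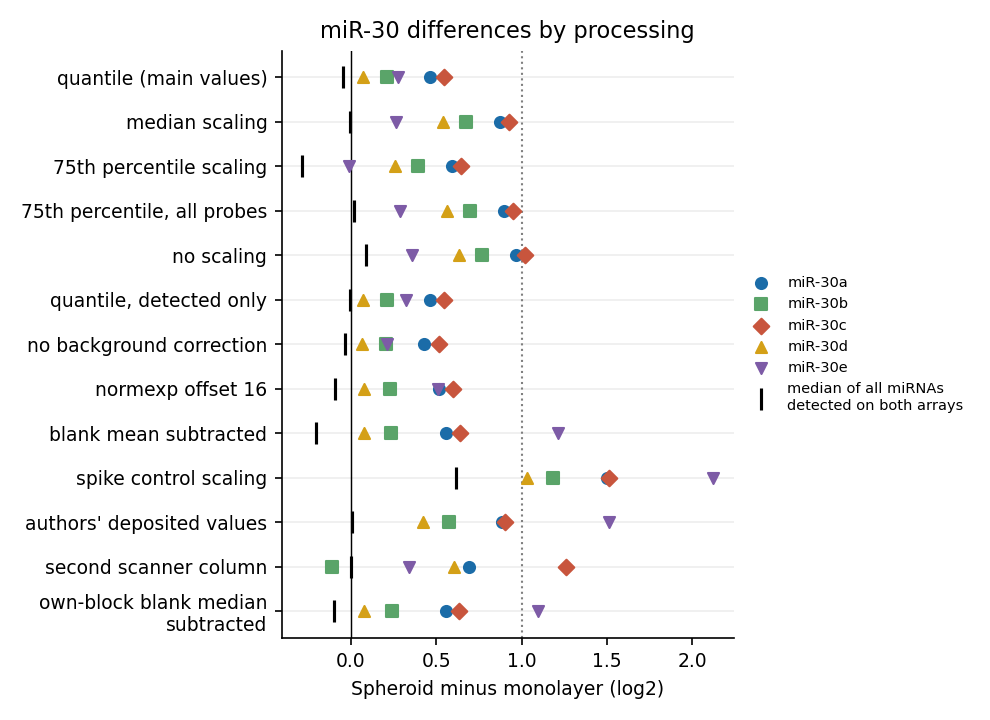
Log2 difference (spheroid minus monolayer) of each miR-30 member under 13 ways of processing the arrays, with black ticks at the median of the 178 miRNAs detected on both arrays and a dotted line at 2-fold. miR-30a and miR-30c lie to the right of miR-30b and miR-30d in each row, while miR-30e ranges from -0.014 to 2.12.

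The miRNAs nearest to each member in the order of normalized log2 differences were of mixed families. They were miR-331 (0.47) and miR-15a (0.46) for miR-30a, miR-148b (0.22) and miR-361 (0.21) for miR-30b, and miR-33a (0.55) and miR-98 (0.54) for miR-30c. For miR-30d they were miR-1271 and miR-301b, both at 0.07, and for miR-30e miR-138a (0.29) and miR-181a (0.24). Nearness was measured as the gap between log2 differences over 2 arrays, so many miRNAs lie about equally near.

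Other seed families give a scale for these values. Of all 178 miRNAs, 44.9% were above 0 in the normalized values, 30.9% with 75th percentile scaling and 70.8% with spike control scaling. The let-7 family, known for holding back RAS and HMGA2 mRNAs, had 7 members detected on both arrays, all higher in the spheroids under each scaling tried, with a median of 0.60 and members from 0.20 for let-7g to 0.65 for let-7e. In the normalized values both miR-26 members, miR-26b (1.44) and miR-26a (1.30), were more than 2-fold higher, which no miR-30 member was there. The share of all miRNAs 2-fold or more higher was 2.25%. In the miR-15/16 family, whose targets include cyclins, 4 of 6 were higher and 2 lower, from miR-503 (-0.23) to miR-15b (0.63), with a median of 0.45, and spike control scaling put 5 of 6 above 0, beside 70.8% of all miRNAs. The miR-29 family, whose targets include collagens, had 1 higher and 2 lower, from miR-29a (-0.68) to miR-29c (0.31), and its median of -0.33 was 0.0056 with median scaling and 0.42 with the spike controls. In the deposited values the median of miR-30 was 0.89, beside 0.85 for let-7, 1.85 for miR-26, 0.78 for miR-15/16 and -0.18 for miR-29. With 1 sample per group, no difference between families was tested.

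**Figure D4:**
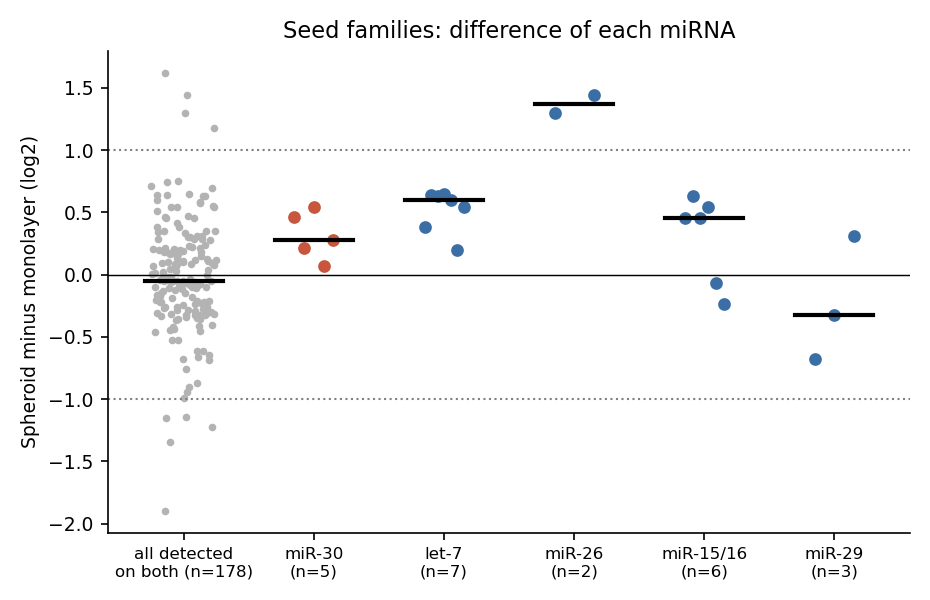
Normalized log2 difference (spheroid minus monolayer) of each miRNA in 5 seed families and of all 178 miRNAs detected on both arrays; each point is a miRNA, black bars are medians and dotted lines mark 2-fold. The miR-30 median of 0.28 lies between the let-7 median of 0.60 and the miR-29 median of -0.33.

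miRNAs that have been tied to the same processes as miR-30 were described by list. Of 16 further miRNAs on the array that were reported as low in human breast tumour-initiating cells (let-7, miR-200 and the miR-183 cluster), 15 were detected on both arrays. All 15 were higher in the spheroids, 12 by more than 2 spot SDs and 0 by 2-fold, with a median of 0.51 and values from 0.01 for miR-200a to 0.75 for miR-429. The shares over all 178 miRNAs were 44.9% above 0, 32.6% higher by more than 2 spot SDs and 2.25% higher by 2-fold. With 75th percentile scaling 12 of the 15 were higher, against 30.9% of all miRNAs, the dim miR-200a, miR-200b and miR-183 being below 0, and with median scaling miR-200a was at -0.08. The list was chosen with earlier results on let-7 and miR-200 in these samples known, so its direction is not independent evidence.

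Of 10 miRNAs that repress transcription factors of epithelial-mesenchymal transition, a process in which epithelial cells lose contacts, 8 were detected on both arrays. Among these 6 were higher and 2 lower, with a median of 0.22, where 44.9% of all miRNAs were above 0. After 75th percentile scaling 4 were higher and after spike control scaling 7, which put 30.9% and 70.8% of all miRNAs above 0. In the normalized values the 8 ranged from miR-429 to miR-205, a miRNA of basal epithelium, which differed by -1.90. It was the only one of the 8 that was 2-fold apart, beside 5.06% of all miRNAs. Of 11 autophagy-linked miRNAs, 9 were detected on both arrays, 4 of them higher and 4 lower, with miR-21 fixed at 0.00 because it was the brightest on both. With spike control scaling 8 of the 9 were higher, where 70.8% of all miRNAs were. Their median of 0.00 in the normalized values was the fixed value of miR-21 itself, and in the deposited values it was -0.04. The normalized values ran from miR-155 (-0.66) to miR-181a (0.24). The list for epithelial-mesenchymal transition also holds miRNAs of other lists, and 5 of its 8 detected miRNAs are of the miR-200 family.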

How the data were processed

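The deposited scanner files give an intensity for each of 3200 spots, headed as the spot median in 1 colour per the file headers, with no background correction or normalization. RNA was labelled with Cy5, per the labels' protocols. Each miRNA has 1 spot per array, and 0 spots carried a warning. The authors' deposited table gives normalized intensities. Set against the scanner values, each is the intensity minus the blank mean (85.1 and 76.7, after leaving out 5% of blank spots at each end), times 0.611 for the monolayer and 0.498 for the spheroids. Its values matched that relation within 0.026 percent, and its empty cells were the undetected miRNAs.

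For the main values, intensities of all spots were corrected with normexp (offset 50) in limma 3.58.1 (R 4.3.3), put on the log2 scale and quantile normalized across the 291 miRNAs. Python 3.11.15, numpy 2.4.6, pandas 2.3.3 and matplotlib 3.10.9 did the rest. The steps were tested on simulated data. In the alternatives that subtract a blank level, values under 2 blank SDs were set to 2 blank SDs. Of 12 alternatives, 10 were planned and 2 (the second scanner column and the blank median of each spot's own block) were chosen after seeing the data. Named miRNAs were the 5 members, the nearest miRNA above and below each in the order of differences, and the highest and lowest of each list. Any other miRNA was chosen with its value known. A rule naming miRNAs that share the seed could not be applied without sequences. The members and lists were chosen with earlier results of these data known.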

Additional observations from a re-analysis of the deposited data

How the results depend on the processing

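The family median was 0.28 in the main values. It was 0.68 with median scaling, 0.40 with the 75th percentile of the detected miRNAs, 0.70 with that of all probes, 0.77 without scaling and 1.50 with the spike controls. It was 0.21 without background correction, 0.51 with an offset of 16, 0.56 with the blank mean subtracted, 0.56 with the own-block blank median subtracted, 0.89 in the deposited values and 0.61 in the second scanner column. Members 2-fold or more higher numbered 0 in the main values and 1 without scaling (miR-30c), with either blank level subtracted (miR-30e), in the deposited values (miR-30e) and in the second scanner column (miR-30c), and 5 with the spike controls. Of all 178 miRNAs, 4 were 2-fold or more higher in the main values, 13 without scaling and 69 with the spike controls. That number was 17 with the blank mean subtracted, 19 with the own-block blank median, 23 in the deposited values and 7 in the second column. All 5 members were above 0 except miR-30e at -0.014 with the 75th percentile of the detected miRNAs and miR-30b at -0.11 in the second scanner column. Of all 178 miRNAs, the number above 0 ran from 55 with that percentile to 126 with the spike controls. The miR-29 median was 0.0056 with median scaling. The cause of these shifts was not tested. No paired analysis was possible because each group has 1 sample. No result could be recomputed without a replicate, for the same reason. The dim miR-30e is the member whose value the blank level limits most.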

Other observations

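The second intensity column of the scanner files was a median of 0.773 of the spot intensity on both arrays over the 178 miRNAs detected on both. The monolayer spot of miR-30c had a ratio of 0.481, the rank 13 from the lowest of 178, against 0.787 on the spheroid array. miR-30b had 0.717 in the monolayer and 0.563 in the spheroids, and miR-30a had nearly equal ratios of 0.659 and 0.683. What this column measures is not given in the sources used here, and its part in the differences was not tested.

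Each array has 32 blocks with 44 blank spots each. In the blocks that hold the miR-30 spots, the blank median minus the array's blank mean ran from -3.09 (miR-30c) to 0.613 intensity units (miR-30a) in the monolayer. In the spheroids it ran from -1.65 (miR-30a) to 2.75 (miR-30e). Subtracting these block levels left miR-30e at 1.10, against 1.21 with the array's blank mean subtracted, and the other members within 0.01 of their values there.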
